A study of Anser anser with 2 samples.

Results

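miR-103 and miR-107 are sister microRNAs (miRNAs) of 1 family, examined here in goose liver with and without overfeeding. Their members were chosen by name: every distinct read sequence (tag) that the deposited tables list as miR-103 or miR-107, with any letter, arm or star. This gave 579 of 18072 tags in the overfed library and 482 of 17203 tags in the control library. The birds were male Landes geese, 90 days old in both groups, and 60 geese entered the study. Overfed geese received a carbohydrate-rich diet with 3353 kcal, 76 g of protein and 15 g of fat per kg for 21 days, and their liver is labelled fatty. Control geese fed at will on a basal diet, which held 2873 kcal with 171 g of protein per kg, and their liver is labelled normal. The labels give a gel cut of 20 to 30 nt, although the tables also list shorter tags from 18 nt. Each group was sequenced as 1 library, and the sources used here do not give the number of birds in each. The tables list 9737540 miRNA reads for the overfed library and 9178938 for the control library.

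A miRNA pairs with messenger RNAs mainly through its seed, bases 2 to 8 from the 5′ end, and lowers their translation and stability. In vertebrates miR-107 lies within the gene PANK1 and the copies of miR-103 within PANK2 and PANK3, genes for pantothenate kinases, which start the synthesis of coenzyme A. In mice the pair is raised in the liver of obese animals and lowers insulin sensitivity through caveolin-1, a protein of the cell membrane. DICER1, the enzyme that cuts miRNA precursors, is another known target in mammals. The tables hold no insulin or lipid measurement, so the label of insulin and lipid regulators could not be checked here. The tissue label could: miR-122-5p, the defining miRNA of hepatocytes, stood at 743955 RPM (reads per 1000000 miRNA reads listed) in the overfed library and 726782 RPM in the control library. Of the hepatocyte list, 2 of 10 found mature miRNAs had a mean of at least 10 RPM. The other, miR-148a-3p, was lower in the overfed library, at 287 overfed and 465 control RPM. miR-194-5p had only 14 overfed and 6 control reads, and miR-192 had 4 overfed and 0 control reads.

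The reference sequences, as the deposited tables give them, are shown because the whole separation of the 2 miRNAs rests on 1 base. Both are 23 nt long and differ, from miR-103 to miR-107, by G22C, counted from 1 at the 5′ end. Capitals mark the seed and base 22.
miR-107: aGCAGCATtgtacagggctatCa
miR-103: aGCAGCATtgtacagggctatGa
The seed is the same in both, so the sisters address the same seed matches. A read that ends at base 21 or earlier belongs to either of them. Reads with C at base 22 were counted as miR-107 and reads with G as miR-103, allowing up to 2 mismatches in the 21 shared bases. Because each group is 1 library, nothing measures the spread between birds, and the conditions were not tested against each other. Every interval below is an exact 95% interval for counting error only, and reads without molecular identifiers are not independent molecules.

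With total reads as the scale, miR-107 was higher in the overfed library and miR-103 nearly level. Reads that carry the miR-107 base numbered 25705 in the overfed library and 14744 in the control library, or 2639.8 and 1606 RPM. Overfed over control this was a ratio of 1.64 (1.61 to 1.68), a log2 ratio of 0.72 (0.69 to 0.75). Reads that carry the miR-103 base numbered 15097 in the overfed library and 15044 in the control library, or 1550.4 and 1639 RPM. Their ratio was 0.946 (0.925 to 0.968), a log2 ratio of -0.08 (-0.11 to -0.05). This log2 ratio turned to 0.01 when the libraries were scaled without miR-122-5p. With edgeR's TMM scaling factors it was -0.28 (-0.31 to -0.25). Whether miR-103 was level or lower therefore depends on the scaling. By reads told apart, the sisters were thus at about equal levels in the control library and apart in the overfed one. More miRNA per cell and more cells that make it cannot be told apart in whole liver.

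The background is the 141 miRNAs that averaged 10 RPM or more. In the overfed library 17.0% of them were higher by 1.5 times or more with an interval that excludes 1, and 9.93% were as much lower; at 2 times or more these shares were 7.09% and 1.42%. miR-107, counted by its base, was past 1.5 times and short of 2 times, and miR-103 was past neither. The 141 were counted by deposited name, by which miR-107 was at 1.41 times and short of 1.5 times. For miR-107 counted by its base, the scaling decides the call at 1.5 times: edgeR's TMM factors lowered every log2 ratio by 0.20, which put miR-107 at 1.43 times (log2 ratio 0.52), and the counts over all 141 miRNAs turned from 24 higher and 14 lower to 18 higher and 25 lower. The median log2 ratio of the 141 was 0.06. Of the 138 outside the family, each counted with all its reads, 19 had a higher ratio than miR-107 by its base. Of the 22 among them with a mean of at least 1000 RPM, 2 did.

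**Figure D1:**
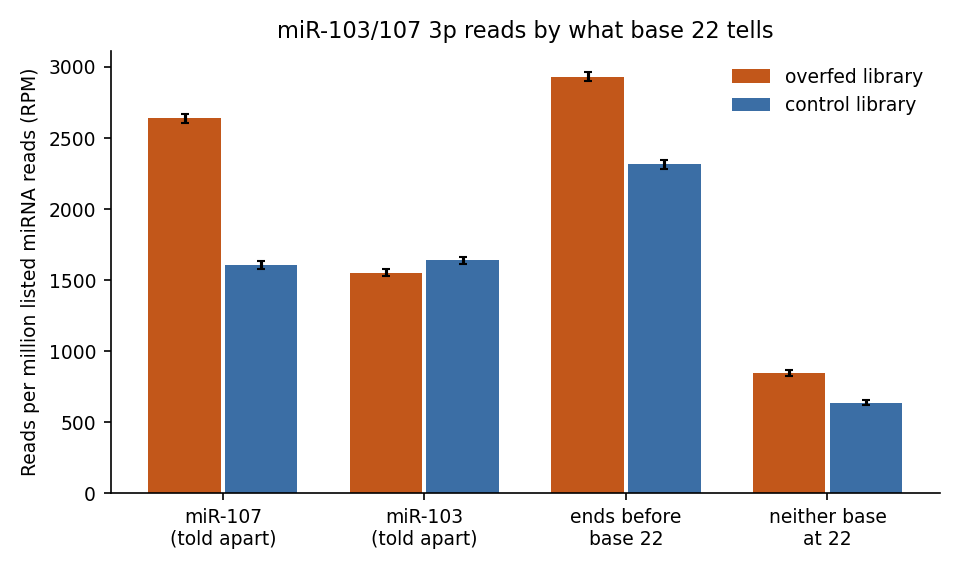
Level of miR-103 and miR-107 reads (RPM) in the overfed and the control library, by what base 22 shows, with bars for the reads and whiskers for exact 95% Poisson intervals. Reads told apart as miR-107 stand at 2639.8 RPM overfed and 1606 RPM control, and those told apart as miR-103 at 1550.4 RPM overfed and 1639 RPM control, while reads that end before base 22 form the tallest pair.

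The balance of the sisters within a library does not depend on how the libraries are scaled. miR-107 made up 63.0% (62.5% to 63.5%) of the reads told apart in the overfed library and 49.5% (48.9% to 50.1%) in the control library. The odds of miR-107 against miR-103 were 1.74 times higher in the overfed library (1.69 to 1.79), beyond counting error. The reads told apart were 52.6% of the family's 3p reads in the overfed library and 52.3% in the control library. About the same part of the pooled family was thus visible in each. The visible part of each sister is unknown, since shorter reads belong to either, and it may differ between sisters and libraries.

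The leading tags show this shift form by form. 12 tags held at least 2% of the family's 3p reads in either library, and the 6 that carry a sister's base are listed, since they make up most of the reads told apart. Capitals mark the seed and base 22.
miR-107, 22 nt: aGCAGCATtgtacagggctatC
miR-107, 23 nt: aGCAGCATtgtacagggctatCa
miR-107, 23 nt with T: aGCAGCATtgtacagggctatCt
miR-103, 22 nt: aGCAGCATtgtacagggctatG
miR-103, 23 nt: aGCAGCATtgtacagggctatGa
miR-103, 23 nt with T: aGCAGCATtgtacagggctatGt
The 22 nt tag of miR-107 had 11567 reads in the overfed library and 7207 in the control library, a log2 ratio of 0.60 (0.55 to 0.64). Its 23 nt tag had 9639 and 5029 reads in the overfed and control libraries, a log2 ratio of 0.85 (0.80 to 0.90). The tag that ends in T had 3962 overfed and 2213 control reads (0.76, 0.68 to 0.83). All 3 tags of miR-107 were higher in the overfed library.

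The matching tags of miR-103 did not move the same way. Its 22 nt tag had 6980 reads in the overfed library and 6325 in the control library, a log2 ratio of 0.06 (0.01 to 0.11). Its 23 nt tag had 5071 overfed and 5550 control reads, a log2 ratio of -0.22 (-0.27 to -0.16). The tag that ends in T had 1634 overfed and 1772 control reads (-0.20, -0.30 to -0.10). Both 23 nt tags of miR-103 were lower in the overfed library beyond counting error, and its 22 nt tag was slightly higher. With TMM factors, which lower each of these values by 0.20, all 3 lie below 0.

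The size of the shift therefore varied with the read form. Among reads that end at base 22, miR-107 made up 62.2% in the overfed library and 53.1% in the control library, an odds ratio of 1.45 (1.39 to 1.52). Among reads that end at base 23 it made up 66.8% in the overfed library and 49.6% in the control library, an odds ratio of 2.05 (1.96 to 2.14). These intervals do not overlap. Reads that end after base 23 are mostly miR-103, with a miR-107 share of 19.6% of 1446 overfed reads and 11.6% of 1331 control reads, and an odds ratio of 1.85 (1.49 to 2.31). In the few reads that start after base 1, miR-107 made up 17.0% (11.3% to 24.1%) in the overfed library and 11.9% (6.82% to 18.9%) in the control library, a difference not detectable at this depth.

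**Figure D2:**
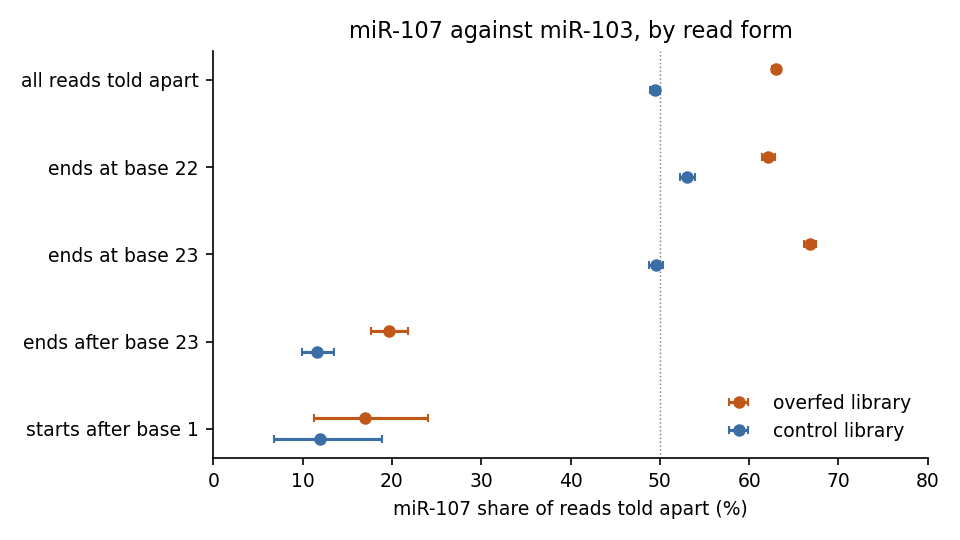
Share of miR-107 (%) among reads told apart, for all such reads and by read form, in the overfed and the control library, with exact 95% binomial intervals as whiskers. The overfed share lies right of the control share in every row, 63.0% against 49.5% over all reads, and only in the bottom row do the whiskers overlap.

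Bases that differ from the reference were rare before base 22. Among reads that start at base 1, the share with another base at any of bases 1 to 19 was at most 0.0829% in the overfed library and 0.0848% in the control library. It was 0.253% overfed and 0.313% control at base 20, and 0.332% overfed and 0.346% control at base 21. These reads were chosen by deposited name and placed with at most 2 mismatches in bases 1 to 21. That choice limits such differences in advance, while the placement did not limit base 22. At base 22, among reads that reach it, C made up 52.4% of overfed and 41.4% of control reads and G 30.8% of overfed and 42.2% of control reads. T followed with 15.3% of overfed and 14.7% of control reads, and A with 1.55% of overfed and 1.72% of control reads. Neither sister's reference has T or A at base 22, and whether such a base was added after the molecule was cut was not tested.

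The deposited names follow base 22 where it is C or G, but reads with neither base were named as well. Of reads with C, 100% in the overfed library and 99.98% in the control library were named miR-107. Of reads with G, 100% in both libraries were named miR-103. By name, miR-107 stood at 6121 RPM in the overfed library and 4339 RPM in the control library (log2 ratio 0.50, 0.48 to 0.51), and miR-103 at 1841 RPM in the overfed library and 1852 RPM in the control library (-0.01, -0.04 to 0.02). Of the reads named miR-107, 43.1% in the overfed library and 37.0% in the control library carry its base. Another 47.6% of them in the overfed library and 52.9% in the control library end before base 22 and could come from either sister. Of the reads too short to tell, 99.4% in the overfed library and 99.2% in the control library were listed as miR-107. Of the reads named miR-103, 84.2% in the overfed library and 88.5% in the control library carry its base. Both miRNAs were therefore blurred by name, miR-107 far more, and its log2 ratio of 0.50 by name mixes 0.72 for its own reads mainly with 0.34 (0.32 to 0.37) for reads too short to tell.

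The family total needs no separation. It held 77642 reads in the overfed library and 56930 in the control library, 7973 and 6202 RPM, a log2 ratio of 0.36 (0.35 to 0.38), and 0.16 with TMM factors. That is 0.797% of all listed miRNA reads in the overfed library and 0.620% in the control library. Counted as 1 entry, the family ranked 6 in both libraries. By its own base alone miR-107 ranked 14 in the overfed library and 20 in the control library, and miR-103 ranked 19 in the overfed library and 20 in the control library, each set singly against the miRNAs outside the family. Those other miRNAs were counted with all their reads, short ones included, so these ranks set a part of each sister against wholes. When the reads not told apart were divided in each library like those told apart, the log2 ratio was 0.71 for miR-107 and -0.09 for miR-103. This setting was chosen after seeing the data. It keeps the balance of the reads told apart by construction, so it cannot check that balance.

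The remaining names were small. miR-107b, a name from zebrafish, had 109 reads in the overfed library and 100 in the control library, a log2 ratio of 0.04 (-0.37 to 0.45). Its reference shares its first 19 bases with both sisters and goes on with 2 T, as shown here with the seed in capitals.
miR-107b reference: aGCAGCATtgtacagggcttt
Its reads therefore cannot be told from shortened reads of the sisters with added T. The 5p or passenger arm, the strand usually discarded, had 1 read in the overfed library and 0 in the control library, where a count of 0 allows up to 0.327 RPM. Its reference is from the rat.

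The 5′ end, which sets the seed, was nearly fixed. Of the placed 3p reads, 99.5% began at base 1 in both libraries (99.4% to 99.5% each). Reads that began at base 2, with the seed shifted by 1 base, made up 0.327% in the overfed library and 0.272% in the control library, and these intervals overlap.

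The 3′ end varied more. The most common tag in both libraries was the 21 nt form that ends just before the base that differs, with 16.7% of the family's 3p reads in the overfed library and 19.9% in the control library. It is shown with the 18 nt form because these mark the ends of the range of unresolved reads, with the seed in capitals.
21 nt form: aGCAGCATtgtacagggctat
18 nt form: aGCAGCATtgtacagggc
The 21 nt tag had 12936 reads in the overfed library and 11331 in the control library, a log2 ratio of 0.11 (0.07 to 0.14). The 18 nt tag had 5168 overfed and 2864 control reads, a log2 ratio of 0.77 (0.70 to 0.83), and the 19 nt tag 5044 overfed and 2812 control reads (0.76, 0.69 to 0.83). The 20 nt tag lay between, with 4768 overfed and 3729 control reads (0.27, 0.21 to 0.33). The 18 and 19 nt forms, which lie below the stated gel cut, were thus higher by about as much as miR-107's own reads, although they cannot be given to a sister.

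Reads that end at base 20 or before made up 19.6% of the family's 3p reads in the overfed library and 16.8% in the control library, a difference of 2.74 percentage points. Short reads were more common in the overfed library in general. Over all other miRNAs, reads of up to 20 nt made up 5.17% of overfed reads and 4.07% of control reads, and without miR-122-5p 10.8% of overfed reads and 8.07% of control reads. Of 50 other miRNAs that had 1000 or more reads in both libraries, the share of such reads was higher in the overfed library for 27 and lower for 1 by intervals that do not overlap, and 19 had a larger difference than the family. The 50 were counted by deposited name, while the family was pooled over all its names. For some of the 50 the share could hardly move, such as miR-4206-3p at 100% and miR-26 at 99.9% in both libraries. The part of shorter reads in the family's ratio was tested only by leaving them out: with tags of at least 21 bases the log2 ratio of the family was 0.33.

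Within the reads told apart, the last base moved in opposite directions in the 2 sisters. For miR-107, reads that end at base 23 made up 53.5% (52.9% to 54.1%) in the overfed library and 49.6% (48.8% to 50.4%) in the control library. For miR-103 they made up 45.2% (44.4% to 46.0%) in the overfed library and 49.4% (48.6% to 50.2%) in the control library. Reads that end at base 22 differed by about as much the other way, with 45.4% overfed and 49.3% control for miR-107 and 47.1% overfed and 42.7% control for miR-103. The odds ratios for the forms that end at base 22 and base 23, above, describe the same counts.

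Longer reads set the sisters apart in both libraries. Reads that end after base 23 made up 1.10% of miR-107 reads in the overfed library and 1.05% in the control library, against 7.70% of miR-103 reads in the overfed library and 7.82% in the control library. The most common longer form continued with A and T after base 22. It held 343 of 1162 longer miR-103 reads in the overfed library and 425 of 1176 in the control library. Whether the extra bases are encoded in the goose precursors was not tested.

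**Figure D3:**
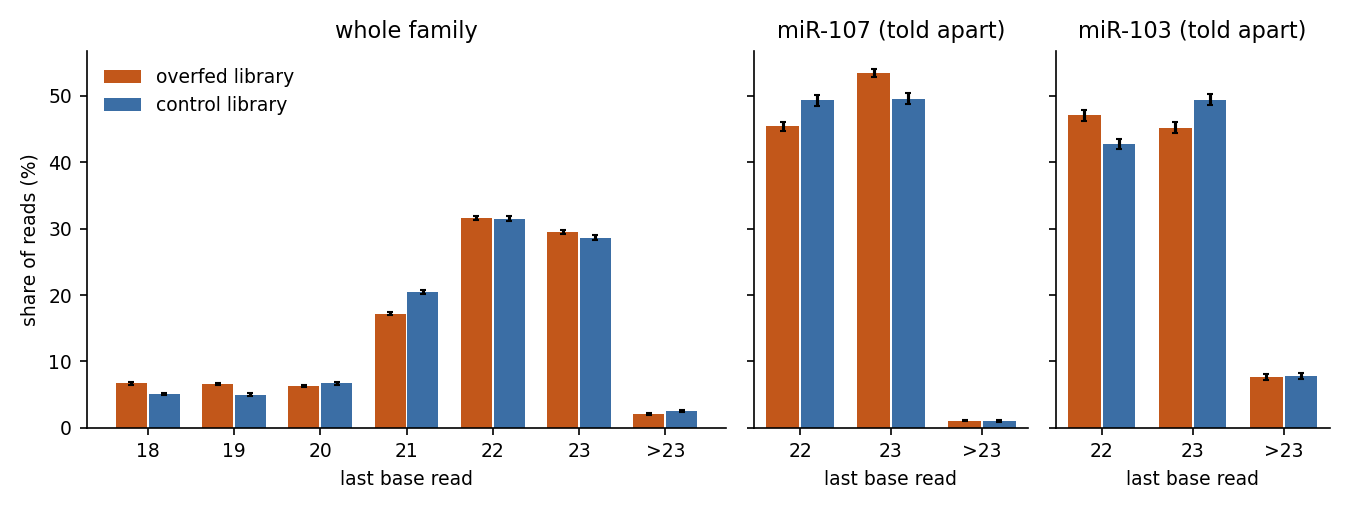
Share of reads (%) by the last base read, counted from base 1 of the mature miRNA, for the whole family, miR-107 and miR-103, in the overfed and the control library, with exact 95% binomial intervals. Reads that end at base 23 make up 53.5% overfed and 49.6% control of miR-107 but 45.2% overfed and 49.4% control of miR-103, and the family's reads that end at base 18 or 19 are more common in the overfed library.

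Reads extended by a T were also compared. The 21 nt form with a T added had 5378 reads in the overfed library and 3889 in the control library. It is shown since it is the largest form with neither sister's base, with the seed and base 22 in capitals.
21 nt form with T: aGCAGCATtgtacagggctatT
Of the 21 nt form and this form together, the form with T held 29.4% (28.7% to 30.0%) in the overfed library and 25.6% (24.9% to 26.3%) in the control library. Of all the family's 3p reads it held 6.93% overfed and 6.83% control, while the 21 nt form held 16.7% overfed and 19.9% control. The last of the 12 leading tags carries a second T.
21 nt form with 2 T: aGCAGCATtgtacagggctatTt
It had 1637 reads in the overfed library and 1025 in the control library, a log2 ratio of 0.59 (0.48 to 0.70). Among the 50 other miRNAs, each by its own most common tag, the share of the form with T was lower in the overfed library for 16 and higher for 1, miR-29c-3p, by intervals that do not overlap. The median difference of the 50 was -0.86 percentage points, against 3.81 for the family. In the 50, a T that belongs to the mature sequence was not separated from an added T. Some of them, such as miR-92a-3p with 0% in both libraries, had no form with T. The 50 are therefore a background for this share and not a measure of T addition. Because the 21 nt form joins both sisters, the sister from which the extended reads came is unknown. By another measure, T at base 23 as a share of each sister's reads told apart, there was no difference beyond counting error. For miR-107 it was 15.9% (15.4% to 16.3%) overfed and 15.5% (14.9% to 16.1%) control. For miR-103 it was 14.5% (13.9% to 15.1%) overfed and 14.8% (14.3% to 15.4%) control.

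**Figure D4:**
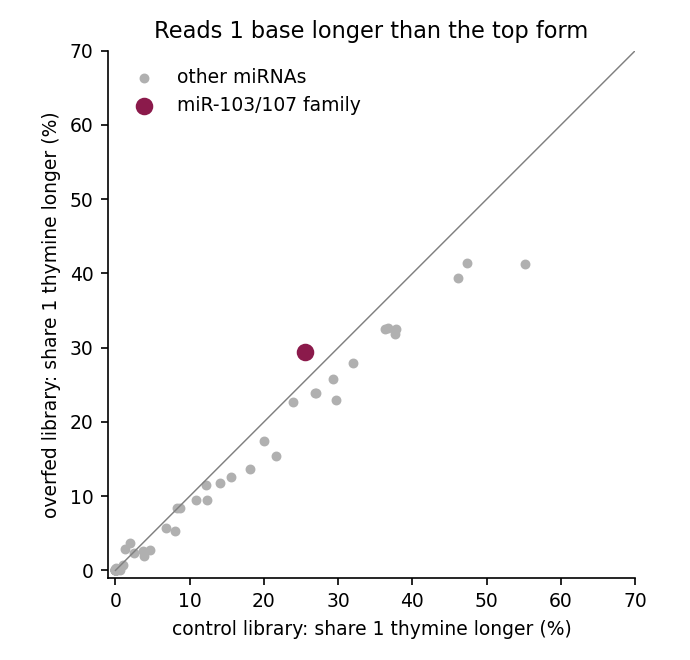
Share (%) of reads 1 thymine longer among the most common tag and that tag with a T, in the overfed library (vertical axis) and the control library (horizontal axis), for the family and 50 other miRNAs that had 1000 or more reads in both libraries. The line marks equal shares, and the family lies above it at 29.4% overfed and 25.6% control.

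The miR-15 and miR-16 family holds the run of the sisters' first 7 bases shifted by 1 base, at its seed. The sequences show this offset, with bases 2 to 8 in capitals.
miR-15a: tAGCAGCAcataatggtttgtg
miR-16: tAGCAGCAcgtaaatattggtg
This family is best known for restraint of the cell cycle. With total reads as the scale, its 4 members with a mean of at least 10 RPM had intervals of the log2 ratio above 0, as did 44.0% of all 141 miRNAs. With TMM factors 2 of the 4 did, against 24.1% of the 141. miR-16c stood at 46.1 RPM in the overfed library and 34.6 RPM in the control library (0.41, 0.20 to 0.62). miR-16-5p was at 0.36 (0.09 to 0.63), miR-15b-5p at 0.33 (0.03 to 0.64) and miR-15a-5p at 0.63 (0.24 to 1.03). Summed over 9 names, it reached 118 RPM in the overfed library and 88.9 RPM in the control library, so reads of miR-103 and miR-107 were 67.7 times as many in the overfed library and 69.8 times as many in the control library.

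Other miRNAs linked to insulin action or lipid metabolism moved both ways. Besides miR-103 and miR-107, 45 names were listed and 44 matched, and 42 mature miRNAs from them had a mean of at least 10 RPM. In the overfed library 5 were higher by 1.5 times or more and 5 as much lower, 11.9% each, against 17.0% and 9.93% of all 141. With TMM factors 4 were higher and 10 lower, 9.52% and 23.8%, against 12.8% and 17.7% of all 141. The median log2 ratio was 0.03. Higher were miR-222-3p (1.56), both arms of miR-221, the islet miRNA miR-375 (1.33) and the myeloid miRNA miR-223-3p (0.62). Lower were miR-29c-3p (-0.90), miR-200b-3p (-0.72), miR-148a-3p (-0.69), miR-30c-5p (-0.68) and miR-26a-5p (-0.65). Of the most abundant of the 42, miR-122-5p was at 0.03, let-7f-5p at -0.27 and let-7g-5p at -0.35. The listed name let-7a matched only rare entries, such as let-7a with 2 overfed reads and 1 control read. The entry let-7-5p, without a letter, was not counted in the list. It stood at 62896 overfed and 68594 control RPM (-0.13), and whether it holds let-7a reads was not tested. miR-107 by name lay at 0.50 and miR-33a-5p, which lies in a sterol regulator gene, also at 0.50, a value named after it was seen. By its own base miR-107 was at 0.72, apart from miR-33a-5p.

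Among miRNAs with a mean of at least 1000 RPM, the log2 ratio nearest to that of the family total was that of miR-148b-3p (0.33, 0.29 to 0.36). Next came miR-2476 (0.25, 0.23 to 0.27), miR-2487 (0.51, 0.47 to 0.55) and miR-21-5p (0.14, 0.12 to 0.16). Only the interval of miR-148b-3p overlaps that of the family total, 0.35 to 0.38. This likeness is over 2 libraries only. The marker lists of other cell types moved unevenly. The summed RPM of stellate or mesenchymal miRNAs was 6029 in the overfed library and 7276 in the control library, with 7 of its 11 found mature miRNAs past 10 RPM, and that of leukocyte miRNAs was 123 overfed and 106.7 control, with 2 of 5 past 10 RPM. Biliary or other epithelial miRNAs summed to 282 overfed and 126 control RPM, with 3 of 7 past 10 RPM. Of these, miR-203-3p, a miRNA of skin epithelium, was at 219 overfed and 43.1 control RPM, miR-200a-3p at 42.1 overfed and 51.5 control RPM and miR-200b-3p at 14.6 overfed and 24.0 control RPM. Those of the pancreas summed to 168 overfed and 67.1 control RPM, with 1 of 2. Endothelial miRNAs summed to 95.5 overfed and 87.0 control RPM, with 2 of 2 past 10 RPM. Of these, miR-126-5p was at 73.3 overfed and 59.5 control RPM and miR-126-3p at 22.2 overfed and 27.6 control RPM. Muscle miRNAs summed to 898 overfed and 830.5 control RPM, with 3 of 10 past 10 RPM. Most of this sum was miR-1a-3p, at 772 overfed and 741 control RPM. The others were miR-1-3p at 97.6 overfed and 74.5 control RPM and miR-499a-5p at 16.3 overfed and 7.19 control RPM. Red cell miRNAs summed to 318 overfed and 360 control RPM, with 3 of 5 past 10 RPM. Neuronal ones summed to 2.46 overfed and 1.42 control RPM, with 0 of 6. The part of these marker miRNAs in the values of miR-103 and miR-107 was not tested.

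**Figure D5:**
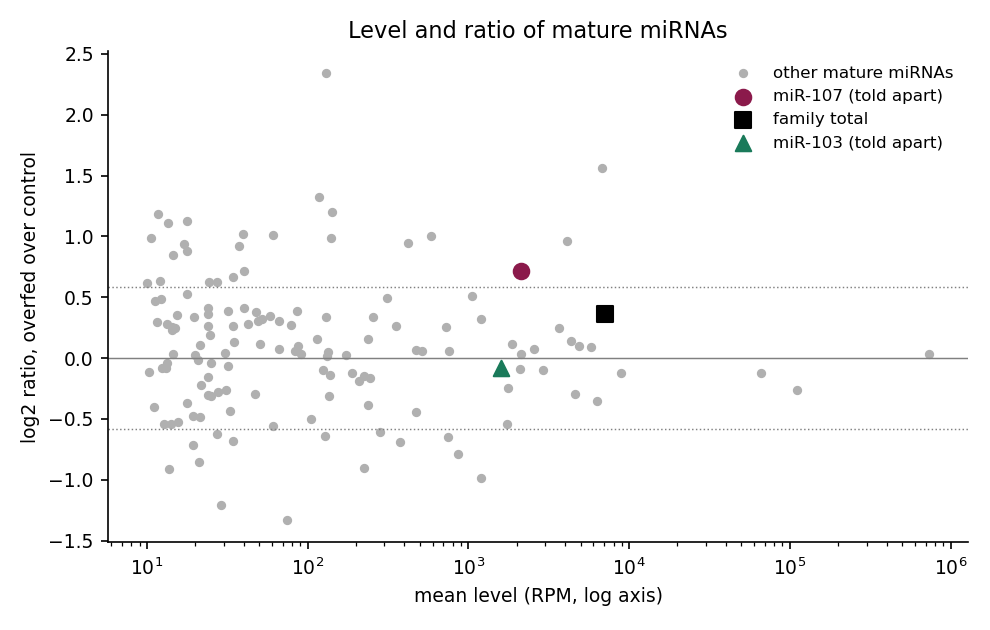
Log2 ratio of overfed over control (vertical axis) against mean level (RPM, log axis) for mature miRNAs with a mean of at least 10 RPM, with miR-107, miR-103 and their family total marked and dotted lines at 1.5 times in each direction. miR-107 lies above the upper line at 0.72, the family total below it at 0.36 and miR-103 close to 0 at -0.08.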

How the data were processed

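Liver RNA was taken up in Trizol, and small fragments were cut from a gel of 10 μg of it for Illumina sequencing, per the labels' protocols. The authors deposited, per library, the read count of each distinct tag with its closest reference miRNA from any species and an alignment score. Counts are whole numbers and not normalized, and the score was not used. Aligner, reference database and release: not given in the sources used here. Totals are of listed miRNA reads, so 1 read is 0.103 RPM in the overfed and 0.109 RPM in the control library, and a count of 0 (floor of 3 counts) allows up to 0.308 and 0.327 RPM.

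Groups were taken from the labels. Each family tag was placed without gaps on the 21 shared bases, with at most 2 mismatches, and sorted by base 22; 49 overfed and 42 control reads could not be placed. Names of different species were joined into 1159 mature miRNAs, a name without a letter with the lettered one that shared a run of 18 bases or more, covering all but 1 base of the shorter reference. Ratios have exact conditional binomial (Clopper-Pearson) intervals, shares exact Clopper-Pearson intervals and odds ratios conditional exact intervals. A miRNA was counted as higher or lower from a mean of 10 RPM, with a ratio of 1.5 times or more whose interval excludes 1. P-values were not computed.

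The members, the lists of insulin, lipid and cell type miRNAs and the rule for named miRNAs were chosen with earlier results of these data known. The text names all members, family tags of at least 2% of reads, and miR-15 and miR-16 members past 10 RPM. It also names the 4 most abundant matched members of the insulin and lipid list, those of it past 2 times, and the 4 nearest in ratio. The others of that list past 1.5 times were named after their values were seen. So were miR-33a-5p, miR-26, let-7-5p, miR-4206-3p, miR-192, miR-194-5p and the epithelial, endothelial and muscle miRNAs. The intervals were tested on simulated counts with counting noise only. The sorting was tested on simulated reads of both references, cut at varied 3′ ends, with random base errors. Those reads held no added bases and no shifted starts, so errors of sorting from these were not tested. Alternatives were edgeR TMM and DESeq2 median-of-ratios factors, a total that leaves out miR-122-5p, 1 RPM added, other minimums and ratios, tags without a mismatch and tags of at least 21 bases. Software was Python 3.11.15, numpy 2.4.6, pandas 2.3.3, scipy 1.17.1, matplotlib 3.10.9, R 4.3.3, edgeR 4.0.16 and DESeq2 1.42.0. Genome positions are not given here.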

Additional observations from a re-analysis of the deposited data

How the results depend on the processing

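No paired analysis was possible because there is only 1 library on each side, and for the same reason no replicate could be left out. Scaling shifts all log2 ratios by 1 constant: -0.20 with TMM factors, -0.08 with median-of-ratios factors and 0.09 without miR-122-5p. In that order the log2 ratios were 0.16, 0.29 and 0.46 for the family total, 0.30, 0.42 and 0.59 for miR-107 by name, -0.21, -0.084 and 0.085 for miR-103 by name, 0.52, 0.64 and 0.81 for miR-107 by its base, and -0.28, -0.16 and 0.013 for miR-103 by its base, the last a change of sign. With tags without a mismatch the family total was at 0.34, miR-107 by name at 0.48 and miR-103 by name at -0.085, and in tags of 21 bases or more the family was at 0.33. Reads assigned by their own sequence put miR-107 at 0.72 and miR-103 at -0.080 in place of the values by name, since unresolved reads are then left out.

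The odds ratio of 1.74 was 2.03 in tags that reach at least 1 base past base 22 and 1.42 by deposited name. The 5p share of 0.00129% in the overfed library was 0% without mismatches. The difference in short reads of 2.74 points was 1.44 for miR-107 by name and 0.0093 for miR-103 by name, to which the authors' names give almost no short read. Counts past the size rule, 38 in all, were 76 without a minimum, 15 with a minimum of 100 RPM and 12 at 2 times; the 10 of the insulin and lipid list were 2 at 2 times. Of 50 values under alternatives, the other 20 stayed within the interval or within 1.5 times of the count. These 20 include the counts with TMM factors, which were judged on higher and lower together. By direction they did change, over all miRNAs from 24 higher and 14 lower to 18 higher and 25 lower. In the insulin and lipid list they went from 5 higher and 5 lower to 4 higher and 10 lower. Counting error is small at these depths, and the variation between birds is unknown.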
